A study of Mus musculus with 14 samples.

Results

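Heat shock chaperones are represented here by 10 genes chosen by symbol: Hspa1a, Hspa1b, Hspa8, Hsph1, Dnajb1, Bag3, Hsp90aa1, Hspb1, Hspd1 and Hspe1. All 10 are among the 43472 rows of each of both normalised count tables. All 10 also passed the filter for the test at 5 h, a mean normalised count of at least 10, which left 13096 genes. The RNA came from primary fibroblasts of C57BL/6 mouse tail tips, which were scratched in vitro as a model of a wound. The wounded cells were left untreated or were given autologous micrografts (AMG). These were skin of the mouse disrupted in saline, passed through a filter and added to the culture medium. The paper describes the micrograft solution behind these data as noncellular. Replicate 1 gave 1 untreated and 1 AMG-treated library at each of 1, 5, 12 and 24 h, and replicates 2, 3 and 4 gave 3 more libraries per group at 5 h. No unwounded cells were among the libraries used here, so every untreated value is that of wounded cells, and the labels do not say whether cells and skin came from the same animal.

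Chaperones bind unfolded stretches of other proteins and help them to fold, to stay soluble or to be degraded. When unfolded protein accumulates, as in heat, heat shock factor HSF1 binds short inverted repeats called heat shock elements in front of the inducible chaperone genes and raises their transcription. Constitutive relatives such as Hspa8 serve the same folding cycle in unstressed cells, and in fibroblasts the small heat shock protein Hspb1 is also known for its ties to the actin cytoskeleton.

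The libraries held 12545537 to 34696529 reads in genes, and the 10 chaperone genes took 0.189% to 0.281% of them. Ribosomal protein genes, a sign of how a library was composed, took 7.0% of the reads of the untreated 5 h library of replicate 1 and 5.10% of the AMG-treated 1 h library, against 2.27% to 3.49% in the other 12. Both libraries that stand apart belong to replicate 1, so the test of replicates 2 to 4 does not contain them. All 9 fibroblast markers were expressed, and their summed normalised count at 5 h was 447877 to 626065 in the untreated and 350882 to 453651 in the AMG-treated libraries of replicates 2 to 4. Of the keratinocyte markers, the keratins Krt1, Krt5 and Krt14 had at most 3 reads in any library. The other 3, the keratin Krt10, Dsp and Trp63, each had a mean of at least 10 in the untreated libraries of replicates 2 to 4. In the AMG-treated ones 2 of them did. Of the 6 keratinocyte markers the sum was 154.6 to 310.2 untreated and 90.2 to 148.9 treated, and of the 5 muscle markers 2907 to 7295 and 1751 to 5503. The muscle sum rested on Acta1 (mean 5692 untreated and 3922 treated). It was the only 1 of the 5 with a mean of 10 in these libraries, and Ckm and Myh4 had at most 3 reads. Leukocyte markers, 5 of the 6 listed being in the tables, summed to 89.1 to 1048 and 125 to 993. The 4 endothelial markers summed to 15.7 to 238.1 and 7.63 to 114.8. The highest gene of each of these lists was Dsp for keratinocytes (mean 180.0 untreated and 73.6 treated), Lyz2 for leukocytes (404.3 and 379.7) and Tek for endothelium (83.9 and 37.9). In these bulk samples fewer cells of a type and less RNA per cell cannot be told apart.

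The regions in front of the genes are shown first, because heat shock elements are what these genes are known to share. RefSeq promoter windows of 250 bases before to 50 after a start site (build GRCm38.p6) held 8 of the 10 genes. Hspa8 and Hsp90aa1 were not among them. The letters searched were GAANNTTC or TTCNNGAA, which are 2 inverted units of the element and read the same on both strands. Only the 250 bases before the start site were searched in each window. The letters stood there in 6 of the 8 genes and in 12.8% of all 32851 windows. The units differ, since a gene was counted if any of its windows held the letters and the percentage counts single windows. The stretches of 30 bases below carry them in capitals, each printed 5′ to 3′ on the strand of its gene. A match describes letters and not binding.

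Hspa1b (chr17:34959324-34959353, minus strand, element at -104 to -97 from the start site): cgaaactgctgGAAGATTCctggccccaag
Hspa1a (chr17:34972242-34972271, minus strand, element at -104 to -97): cgaaactgctgGAAGATTCctggccccaag
Hspb1 (chr5:135887801-135887830, plus strand, elements within -117 to -90): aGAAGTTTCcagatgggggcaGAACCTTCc
Hspe1 (chr1:55088053-55088082, plus strand, element at -89 to -72): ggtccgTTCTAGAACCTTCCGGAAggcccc
Hspd1 (chr1:55088053-55088082, minus strand, element at -144 to -127): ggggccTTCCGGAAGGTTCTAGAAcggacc
Hsph1 (chr5:149636351-149636380, minus strand, element at -54 to -47 or -33 to -26 from its 2 RefSeq starts): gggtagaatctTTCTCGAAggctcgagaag

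The stretch of Hspa1a was identical to that of Hspa1b, and the 250 bases upstream of both genes differed at only 3 positions. Hspd1 and Hspe1 lie head to head, and their element is 1 and the same stretch read from opposite strands. That stretch also held the longer form of the heat shock element with 3 alternating units, which 0.466% of all windows held. In the GENCODE annotation a longer Hspd1 transcript begins within Hspe1, so that the shared element falls inside its first exon. The 250 bases upstream of Bag3 and Dnajb1, and of the other RefSeq start of Hspd1, did not hold the letters of the element. Of the 8 genes only Bag3 held the AP-1 letters TGACTCA, which begin at -20 and were found in 4.46% of all windows. They are shown because AP-1 was the factor the study turned to:

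Bag3 (chr7:128523552-128523581, plus strand): attatagcctaTGACTCAgggcggagctcc

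Per kilobase of exon, Hspa8 led and the inducible Hsp70 genes came last in untreated wounded cells at 5 h. Normalised counts per kilobase (mean ± SD, n = 3) were 3734 ± 236 for Hspa8, 2286 ± 263 for Hspb1, 1938 ± 301 for Hsp90aa1 and 1905 ± 402 for Hspd1. Hspe1 followed with 1208 ± 82.9 and Bag3 with 1097 ± 139. Dnajb1 stood at 318 ± 7.54 and Hsph1 at 285 ± 10.0. Hspa1b reached 79.2 ± 29.9 and Hspa1a 15.9 ± 2.90. In this order the ranges of neighbours overlapped between Hspb1 and Hsp90aa1, between Hsp90aa1 and Hspd1, and between Hspe1 and Bag3. They did not overlap elsewhere. The length used was that of all annotated exons and not of the longest transcript. For Hsph1 it was 7266 against 4764 bases, for Dnajb1 3204 against 2996, and for Hspe1 1474 against 964. For Hspd1 it was 2642 against 2423. The place of Hsph1 below Dnajb1, the overlap of Hspe1 with Bag3 and the gap between Hspd1 and Hspe1 depend on this choice. The levels were not corrected for sequence shared with other genes, which is given below. Hspa8 was above 98.7% of the tested genes with a length and Hspa1a above 16.6%.

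In the GENCODE annotation (GRCm38), Hspa1a (chr17:34969190-34972156) and Hspa1b (chr17:34956436-34959238) are single-exon genes on the minus strand. On the plus strand lie Hspa8 (chr9:40800984-40810087), whose exons overlap the small nucleolar RNA genes Snord14c, Snord14d and Snord14e, Dnajb1 (chr8:83608193-83612653), Bag3 (chr7:128523616-128546981) and Hspb1 (chr5:135887919-135889563). Hsph1 (chr5:149614287-149636376) and Hsp90aa1 (chr12:110690605-110702728) lie on the minus strand. Hspd1 (chr1:55077835-55088243, minus) and Hspe1 (chr1:55088132-55091307, plus) overlap at their starts.

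Some of these rows share sequence with other genes, and the authors kept uniquely aligned reads only. Of the 50-base windows of the longest transcript, 66.3% were shared with another gene in Hspa1a and 62.3% in Hspa1b, each mainly with the other. The share was 58.5% in Hsp90aa1, 52.7% in Hspa8, 51.7% in Hspb1, 44.8% in Hspd1, 8.20% in Hspe1 and 0.441% in Dnajb1. Hsph1 and Bag3 shared none, so these rows are the least affected. The level of a gene with shared windows is a lower estimate, and a split of reads between Hspa1a and Hspa1b is uncertain. The Hspb1 pseudogene Hsp25-ps1 had at most 79 reads in a library, and the Hspe1 pseudogene Hspe1-ps3 at most 19. The overlap of Hspd1 and Hspe1 is exonic, and the strand setting of the counting is not given in the sources used here. Whether reads there were counted for Hspd1, for Hspe1 or for neither is therefore not known.

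The comparison of AMG-treated with untreated wounded fibroblasts at 5 h asks which transcripts changed upon treatment. None of the 10 chaperone genes passed the test. With limma on log2(normalised count + 1), 0 of 10 had a Benjamini-Hochberg adjusted p under 0.05, against 1.24% of all genes tested, and 3 (Hspb1, Bag3 and Hspe1) had an unadjusted p under 0.05, as did 23.1% of all genes. DESeq2 on the recovered reads called 1 (Hspe1), against 6.52% of genes called higher by it, and edgeR called 0. The replicate numbers paired the libraries, and when the number entered limma as a block, 4 of 10 were called higher (Hspb1, Bag3, Hspd1 and Hspe1) and 0 lower, against 17.9% of all genes higher and 19.3% lower. With the block and a correction for gene length, the 4 called were Hspb1, Bag3, Hspd1 and Hsph1. In that setting 33.85% of all genes were called, 2233 higher and 2200 lower of 13096. When replicate 1 was added with the block, 0 of 10 were called, against 3.78% of all genes in edgeR, 3.93% in limma and 9.14% in limma with the length correction.

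The median log2 fold change of the 10 genes was 0.23, and that of all tested genes was -0.02. Treated values were higher in each of the 3 pairs for 7 of the 10 genes, against 31.9% of all genes. In 3 of them (Hsph1, Dnajb1 and Hspe1) the 3 treated values all lay above the 3 untreated ones, as they did in 15.1% of all genes. In 0 of the 10 did they all lie below, as they did in 13.6% of all genes. Beside these values, the share of ribosomal protein reads in replicates 2 to 4 was 2.27% to 2.82% in the untreated and 3.16% to 3.49% in the AMG-treated libraries, and its part in the result was not tested.

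**Figure D1:**
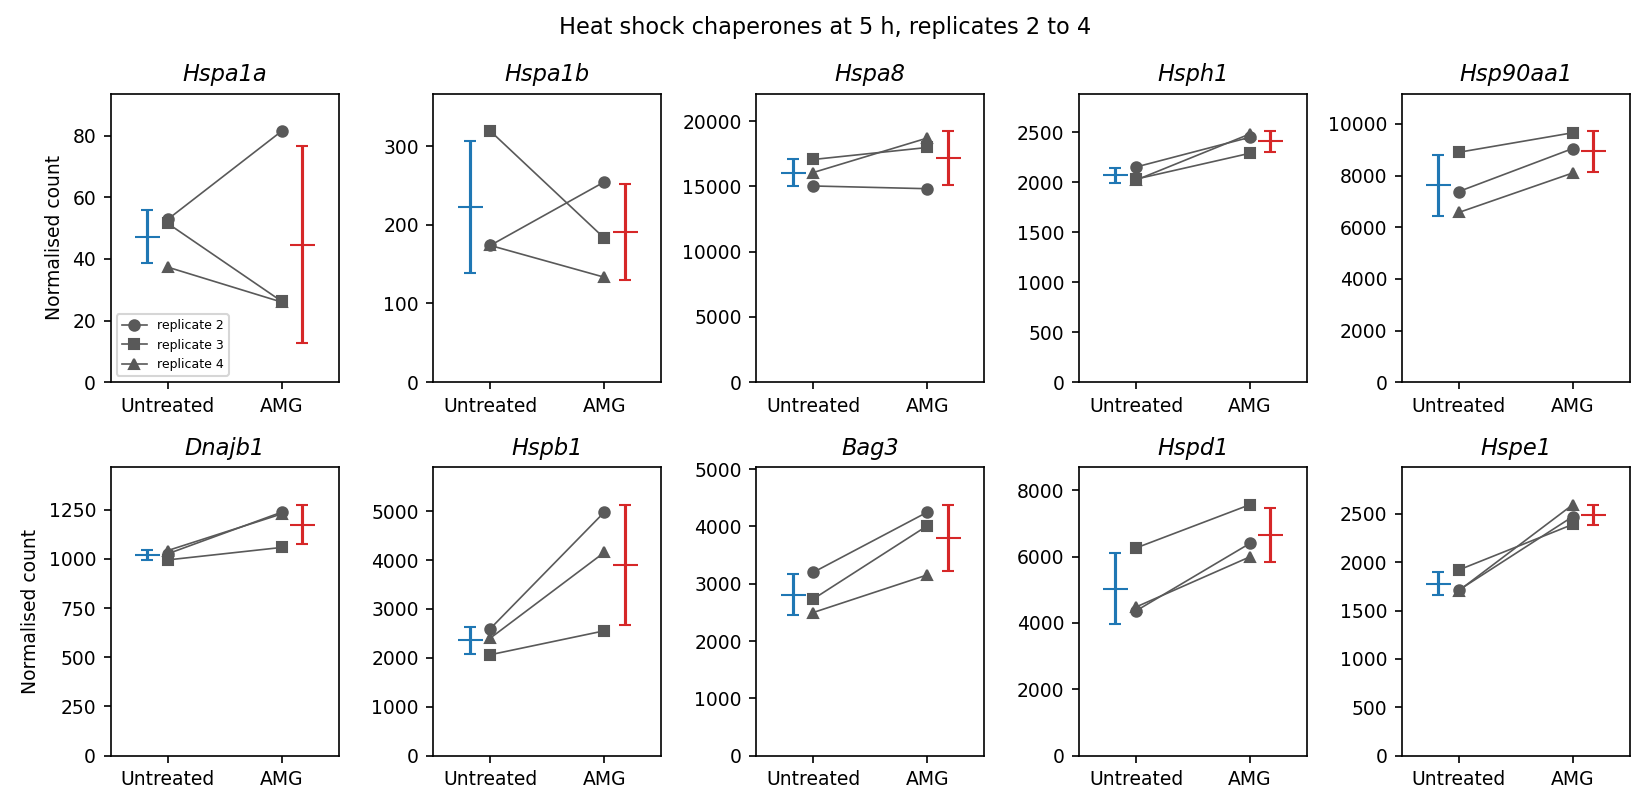
Normalised counts (linear axes from 0) of the 10 heat shock chaperone genes at 5 h in replicates 2, 3 and 4, with lines joining the untreated and AMG-treated library of a replicate number. Horizontal marks and bars beside the points give mean ± SD (n = 3), and the treated points lie above all untreated points for Hsph1, Dnajb1 and Hspe1.

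In the Hsp70 system, the inducible genes did not move one way at 5 h. Hspa1a, which lies on chromosome 17 beside Hspa1b and encodes nearly the same inducible Hsp70, had normalised counts of 52.8, 51.5 and 37.3 in untreated replicates 2, 3 and 4 and of 81.4, 26.2 and 26.0 in the treated ones. Treated replicate 2 was the highest of the 6 libraries and the other treated ones the lowest, so the groups overlapped. The log2 fold change of Hspa1a was -0.28 ± 0.50 (SE, n = 3), with a limma adjusted p of 0.77. These values rest on 23 to 69 reads per library.

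Hspa1b was counted at 173.8, 318.9 and 173.6 untreated and 254.5, 182.8 and 133.3 treated. It too was higher upon treatment in replicate 2 and lower in replicates 3 and 4, and the groups overlapped. Its log2 fold change was -0.21 ± 0.34 (SE, n = 3; limma adjusted p = 0.74) and turned to 0.08 without untreated replicate 3 and to 0.02 without treated replicate 4. The 95% interval of the change, -1.01 to 0.59 on the log2 scale, includes a 2-fold lower level upon treatment, and the interval with the block, -0.74 to 0.32, does not.

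Hspa8, the constitutive Hsc70, had 15039, 17070 and 16070 normalised counts untreated and 14830, 17989 and 18712 treated, with overlapping groups. Its log2 fold change was 0.09 ± 0.15 (SE, n = 3; limma adjusted p = 0.74), and the 95% interval of -0.25 to 0.44 excludes a 2-fold change.

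Hsph1, an Hsp110 that exchanges the nucleotide of Hsp70, had 2153, 2032 and 2022 untreated and 2450, 2291 and 2484 treated. All treated values lay above all untreated values, which is a small step of 0.22 ± 0.10 on the log2 scale (SE, n = 3). It did not pass limma (adjusted p = 0.26), nor with the block (adjusted p = 0.076). With the length correction and the block the log2 fold change was 0.34 and the adjusted p 0.014. The alternatives gave adjusted p between 0.014 and 0.52.

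Dnajb1, the inducible Hsp40 that delivers substrates to Hsp70, had 1025, 994.2 and 1042 untreated and 1237, 1058 and 1228 treated. The groups did not overlap, and the lowest treated value was close to the highest untreated one. The log2 fold change was 0.20 ± 0.12 (SE, n = 3; limma adjusted p = 0.35).

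Bag3, which binds Hsp70 and small heat shock proteins and feeds clients to autophagy, had 3199, 2733 and 2498 untreated and 4248, 4011 and 3154 treated. It was higher upon treatment in 3 of 3 pairs, although treated replicate 4 was just below untreated replicate 2. Its log2 fold change was 0.43 ± 0.16 (SE, n = 3), with a limma adjusted p of 0.18 without and 0.0059 with the block, and between 0.0059 and 0.42 over the alternatives.

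Hsp90aa1, the stress-inducible cytosolic Hsp90, had 7382, 8902 and 6571 untreated and 9047, 9658 and 8102 treated. Each treated library was above its untreated partner, and the groups overlapped. The log2 fold change of 0.24 ± 0.15 (SE, n = 3) passed neither without the block (limma adjusted p = 0.38) nor with it (adjusted p = 0.062).

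Hspb1, the small heat shock protein also called Hsp25, had the greatest fold change of the 10 as deposited, though not with the length correction. It was counted at 2600, 2065 and 2406 untreated and 4982, 2554 and 4159 treated. Treated replicates 2 and 4 stood far above all others, and treated replicate 3 just under untreated replicate 2. The log2 fold change was 0.68 ± 0.25 (SE, n = 3), a 1.60-fold difference, with a limma adjusted p of 0.18 without and 0.0033 with the block, and between 0.0030 and 0.42 over the alternatives. Without treated replicate 3 it was 0.96 (adjusted p = 0.017), and with the length correction 0.28.

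Hspd1 and Hspe1 encode Hsp60 and Hsp10, the barrel and the lid of the mitochondrial folding chamber. Hspd1 had 4363, 6257 and 4479 untreated and 6397, 7563 and 5992 treated. Replicate 3 was the highest of both groups, each treated library exceeded its partner, and the groups overlapped. The log2 fold change of Hspd1 was 0.42 ± 0.18 (SE, n = 3), with a limma adjusted p of 0.23 without and 0.0079 with the block (range 0.0079 to 0.46).

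Hspe1 had 1713, 1922 and 1707 untreated and 2473, 2392 and 2597 treated, and the groups did not overlap. Its log2 fold change of 0.48 ± 0.11 (SE, n = 3) gave the lowest adjusted p of the 10 in limma, 0.087. This was 0.0049 with the block and 0.0033 in DESeq2, in a range of 0.0033 to 0.86. The length correction took the log2 fold change of Hspe1 to 0.18 (adjusted p = 0.11 with the block). The head-to-head pair thus had like fold changes as deposited, and Hspd1 but not Hspe1 passed the block after the correction, a difference that was not itself tested.

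**Figure D2:**
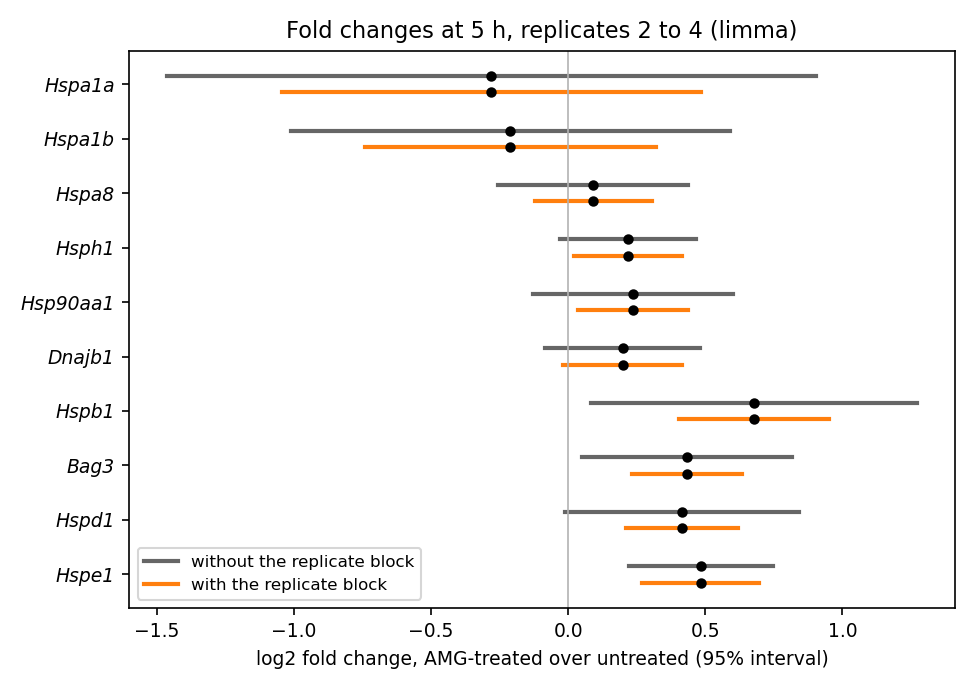
Log2 fold change (AMG-treated over untreated, 5 h, replicates 2 to 4, n = 3 per group) of each heat shock chaperone gene by limma, as a point with its 95% interval without (grey) and with (orange) the replicate block. The block intervals of Hspb1, Bag3, Hspd1 and Hspe1 lie above 0, as do those of Hsph1 and Hsp90aa1, which did not pass after adjustment over 13096 genes.

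Replicate 1 followed treated and untreated cells over 24 h with 1 library per group and time, so its ratios have no replicate check and no test. The 10 genes had a median log2 ratio of 0.55 after 1 h, with 8 of 10 above 0, and of -0.26 after 5 h, with 3 above 0. After 12 h it was 0.01 (6 above 0), and after 24 h 0.45 (10 above 0). The medians of all genes were -0.06, -0.01, -0.01 and 0.02. As deposited, past a log2 ratio of 1 or -1 were Hspe1 and Dnajb1 at 1 h and Hspa1b at 5 h. None of the 10 was past it at 12 or 24 h. With the length correction Dnajb1 at 1 h (1.00) and Hsph1 at 24 h (1.01) were past it, and Hspe1 at 1 h (0.57) and Hspa1b at 5 h (-0.98) were not. Such ratios were common: of all genes, 22% were past 1 or -1 after 1 h, 25.9% after 5 h, 12.8% after 12 h and 14.1% after 24 h. The treated 1 h and untreated 5 h libraries are those that stood apart in ribosomal protein reads, and their part in the ratios at these times was not tested.

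The Hsp70 pair and its co-chaperone Dnajb1 were highest in the treated library at 1 h as deposited. With the length correction the treated level of Hspa1a at 24 h was above that at 1 h by 0.02 on the log2 scale. Hspa1a had 71.2, 50.8, 62.2 and 76.6 normalised counts in the untreated libraries at 1, 5, 12 and 24 h and 123.5, 36.4, 62.9 and 116.1 in the treated ones. Hspa1b had 399.9, 406.5, 338.8 and 294.1 untreated and 692.0, 177.2, 335.4 and 489.6 treated. Both were above the untreated library at 1 and 24 h, close to it at 12 h and below it at 5 h, where the log2 ratio was -0.47 for Hspa1a and -1.19 for Hspa1b. Dnajb1 had 2196, 2006, 1242 and 1232 untreated and 4756, 1410, 1045 and 1241 treated. Its treated level was 2.16-fold the untreated one at 1 h and then fell by 1.94 on the log2 scale to 24 h, and with the length correction the log2 ratio at 1 h was 1.00.

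The constitutive Hspa8 had 17498, 16891, 14471 and 12900 untreated and 22436, 14845, 14556 and 15539 treated, and its log2 ratios ran from -0.19 at 5 h to 0.36 at 1 h. Hsp90aa1 had 9043, 10164, 6320 and 6171 untreated and 12839, 10048, 8145 and 8366 treated, with a log2 ratio of -0.02 at 5 h and of 0.37 to 0.51 at the other times. Both were highest in the treated library at 1 h.

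Hsph1 had 2204, 1177, 1510 and 1969 untreated and 1876, 1972, 2885 and 3895 treated. Its log2 ratios in order of time were -0.23, 0.74, 0.93 and 0.98, and 0.08, 0.46, 0.83 and 1.01 with the length correction. Like Hspd1, it was below the untreated library at 1 h and above it from 5 h on as deposited. The treated level was highest at 24 h, and the step from 1 to 5 h was 0.07 on the log2 scale as deposited and -0.12 with the correction. Bag3 had 6604, 4826, 3713 and 4138 untreated and 9191, 6341, 3797 and 4349 treated. Its log2 ratios were 0.48, 0.39, 0.03 and 0.07, and both groups had their highest level at 1 h.

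As deposited, Hspb1 was lowest at 24 h in both groups. It had 4960, 8322, 3196 and 1501 untreated and 7533, 6624, 2032 and 1934 treated, which is a 5.54-fold range in the untreated and a 3.89-fold range in the treated libraries. The untreated maximum is the 5 h library that stands apart, and its log2 difference from 1 h was 0.75 as deposited and -0.56 with the length correction. Its log2 ratios of 0.60, -0.33, -0.65 and 0.37 turned to -0.45, 0.55, -0.50 and 0.02 with the length correction, so the direction at 1 and 5 h depends on it. The Hspb1 exons span 1031 bases, the shortest of the 10.

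Hspd1 had 4598, 4673, 3723 and 3437 untreated and 3954, 6093, 5295 and 4720 treated, with log2 ratios of -0.22, 0.38, 0.51 and 0.46. It was below the untreated library at 1 h and above it from 5 h on, also with the length correction (-0.49, 0.74, 0.60 and 0.34). Hspe1 had 1844, 5288, 2045 and 1568 untreated and 4540, 2713, 2013 and 2298 treated. Its log2 ratios were 1.30, -0.96, -0.02 and 0.55, and 0.57, -0.30, 0.13 and 0.34 with the correction. The pair that shares an upstream region therefore had opposite signs at 1 and at 5 h in replicate 1 with and without the correction, while both were above 0 in the 3 pairs of replicates 2 to 4.

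**Figure D3:**
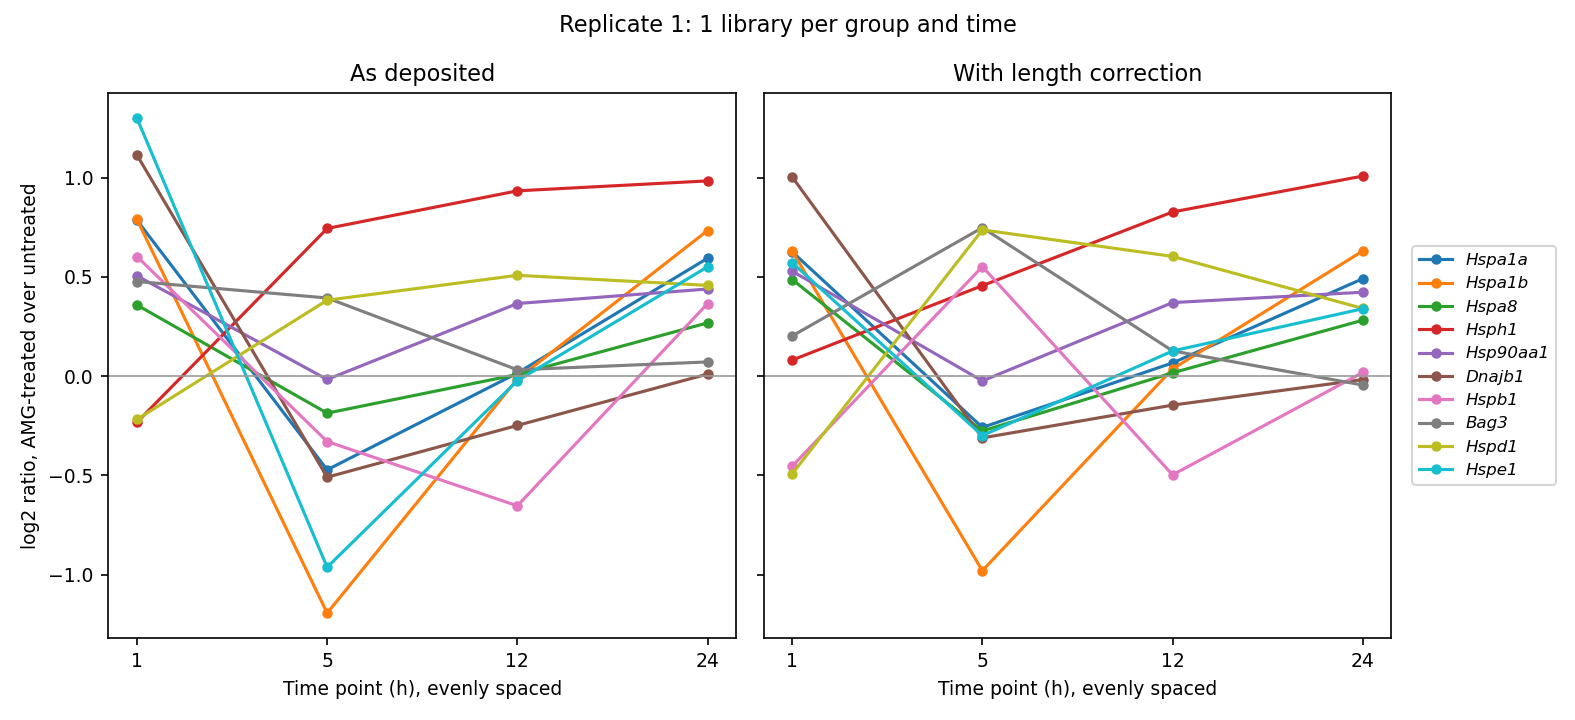
Log2 ratio of AMG-treated over untreated in replicate 1 at 1, 5, 12 and 24 h (spaced evenly, 1 library per group and time) for the 10 heat shock chaperone genes, as deposited (left) and after the correction for gene length (right). Hsph1 rises to 0.98 as deposited and 1.01 corrected at 24 h, and Hspb1 changes sign at 1 and 5 h between the panels.

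**Figure D4:**
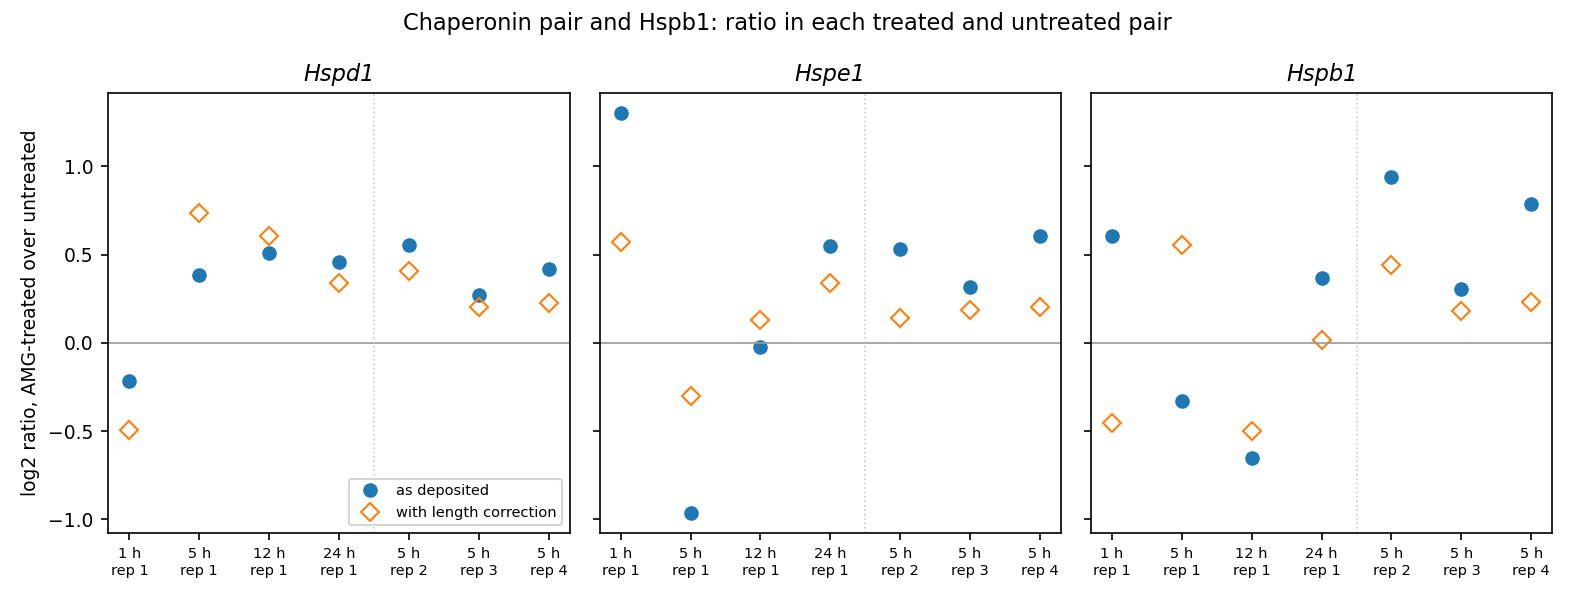
Log2 ratio of AMG-treated over untreated for Hspd1, Hspe1 and Hspb1 in each of the 7 pairs of libraries, as deposited (filled circles) and with the length correction (open diamonds), with replicate 1 left of the dotted line. In replicates 2 to 4 all points lie above 0, and in replicate 1 Hspd1 and Hspe1 lie on opposite sides of 0 at 1 and 5 h.

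The untreated 5 h library of replicate 1, in which ribosomal protein genes took 7.0% of reads, also stood apart from those of replicates 2 to 4 in CPM (reads scaled to the total of their library), and what the composition of the library contributes was not tested. Hspe1 had 233.5 CPM in the untreated library of replicate 1 and 91.0 to 110.0 in the other 3. Hspb1 had 367.4 against 118.2 to 144.8, and Dnajb1 88.6 against 55.5 to 57.1. The log2 ratio of each of these genes at 5 h was below 0 in replicate 1 and above 0 in replicates 2, 3 and 4, as was that of Hsp90aa1, which was -0.02 in replicate 1. With the length correction that of Hspb1 was 0.55 in replicate 1, and so above 0 in all 4 pairs.

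By the mean absolute difference of the 7 log2 ratios as deposited, the genes with the pattern most like that of Hspa1a were Hspa1b (0.18), Nup43 (0.29) and Plekho1 (0.29). The search covered 9817 genes, whose median was 0.67. Hspa1b shares much of its sequence with Hspa1a, as given above. Nearest to Hspb1 were Pycrl (0.097), Hyi (0.14) and Eif4ebp1 (0.14), with a median of 0.67 over all genes. The ratios of Hspb1 at 1 and 5 h in replicate 1 change sign with the length correction, which this search did not use. Those pairs hold the libraries that stood apart in ribosomal protein reads, and what library composition adds to such likeness was not tested. Nearest to Hspd1 were Ell (0.060), D19Bwg1357e (0.084) and Ero1l (0.095), with a median of 0.54. Hspe1 was not among the nearest genes of Hspd1.

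The wider chaperone system was followed through 55 other genes in 6 lists. At 5 h in replicates 2 to 4, limma called 0 of the 55, and 14 had an unadjusted p under 0.05, as did 23.1% of all genes. By edgeR 0 were called, and DESeq2 called 6 higher and 1 lower, against 10.9% of all genes called by it. With the replicate block 20 were called higher and 3 lower, against the 17.9% and 19.3% of all genes given above. With the length correction beside the block 17 were called higher and 3 lower, where 33.85% of all genes were called. When replicate 1 was added with the block, 0 of the 55 were called by edgeR or by limma, with or without the length correction. The fold changes below are on the log2 scale, with n = 3 per group, and the adjusted p is that of limma with the block. None of the genes named below passed limma without the block, where the adjusted p was 0.061 (Hspb8) to 0.43 (Hspb7), and over all alternatives the highest adjusted p of a gene ran from 0.30 (Cryab) to 0.93 (Grpel1).

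Among 20 cytosolic chaperones and co-chaperones the median log2 fold change was 0.28, and with the block 11 were called higher and 2 lower. Bag1, a nucleotide exchange factor of Hsp70, was at 2046 ± 98.3 untreated and 3138 ± 815 treated (SD; log2 fold change 0.58, adjusted p = 0.0071). Dnajb6, an Hsp40 that holds back aggregation, went from 1327 ± 241 to 1885 ± 334 (0.51, adjusted p = 0.0043). Hspa4l, an Hsp110 like Hsph1, went the other way, from 729 ± 134 to 441 ± 31.0 (-0.71, adjusted p = 0.0062).

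Of the 5 further small heat shock proteins, 2 were called higher and 1 lower with the block, and the median was 0.13. With the length correction beside the block the median turned to -0.26, with 2 called higher and 2 lower. Cryab, which forms oligomers with Hspb1, was at 6083 ± 1048 untreated and 10006 ± 657 treated (0.73, adjusted p = 0.0013). Hspb8, the partner of Bag3, was at 1913 ± 120 and 2871 ± 155 (0.59, adjusted p = 0.0013). Both were also called by DESeq2. Hspb7 was at 1794 ± 536 and 1348 ± 532 (-0.44, adjusted p = 0.0097).

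Of 6 mitochondrial chaperones and proteases, 3 were called higher with the block and 0 lower (median 0.26). Hspa9, the mitochondrial Hsp70, was at 9376 ± 167 untreated and 12479 ± 556 treated (0.41, adjusted p = 0.0072). Its exchange factor Grpel1 was at 1464 ± 210 and 1849 ± 239 (0.34, adjusted p = 0.016), and the protease subunit Clpp at 642 ± 41.9 and 938 ± 129 (0.54, adjusted p = 0.0095). With the length correction Clpp was no longer called (0.15, adjusted p = 0.25).

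Of the 8 subunits of the cytosolic chaperonin TRiC, 2 were called higher with the block and 0 lower (median 0.21), Cct3 with 0.26 (adjusted p = 0.045) and Cct8 with 0.25 (adjusted p = 0.047). Cct8 was no longer called with the length correction (0.10, adjusted p = 0.33). Of 12 chaperones of the endoplasmic reticulum 1 was called higher and 0 lower (median 0.08). This was Hspa5, the Hsp70 of that compartment, at 21152 ± 2467 untreated and 27923 ± 2703 treated (0.40, adjusted p = 0.013). Among the 4 heat shock factors and regulators, Hsbp1, which binds HSF1, was called higher (0.39, adjusted p = 0.016) and was not called with the length correction (0.15, adjusted p = 0.18).

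In replicate 1, the medians of these lists at 1 h were 0.61 for the factors and regulators, 0.30 for the cytosolic chaperones, 0.76 for the small heat shock proteins, 0.33 for TRiC, -0.04 for the mitochondrial and 0.24 for the endoplasmic reticulum list. At 5 h all 6 medians were below 0, from -0.77 for the factors and regulators to -0.23 for the endoplasmic reticulum list. These medians are of ratios as deposited, without the length correction. The pairs at 1 and 5 h hold the libraries that stood apart in ribosomal protein reads, whose part in the medians was not tested. At 12 h the small heat shock proteins had a median of -0.99, and the other lists ran from -0.05 for the factors and regulators to 0.13 for the cytosolic chaperones. At 24 h they ran from -0.22 for the endoplasmic reticulum list to 0.43 for the small heat shock proteins.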

How the data were processed

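RNA-seq of wounded mouse fibroblasts comprised 14 libraries, whose titles give group and replicate. The authors made stranded poly(A) libraries, aligned 50-base single-end reads to mm10 with TopHat2 2.0.13, kept unique alignments and counted reads per gene with HTSeq 0.5.3p3 (versions per the submitters' processing notes). The annotation release is not given in the sources used here. The authors deposited signal per gene, that is, read counts divided by the size factor of a library. They scaled 8 libraries (replicate 1) in one table and 6 (replicates 2 to 4) in another, so normalised levels were not compared across tables. CPM values of replicate 1 were set beside those of replicates 2 to 4. There, a difference of 1 library cannot be told apart from one between the tables. Division by what 1 read is worth gave whole numbers (within 0.1) for 100% of values, and 12545537 to 34696529 reads per library. This depth limits Hspa1a most. Intervals cover counting error or the spread between libraries only.

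At 5 h, 3 treated and 3 untreated libraries were compared by limma 3.58.1 (R 4.3.3) after the log2(normalised count + 1) transformation (trend, two-sided, Benjamini-Hochberg over 13096 genes with a mean of at least 10, called at an adjusted p under 0.05). On this scale the change of low genes is understated. Deviations from the group means correlated with r = 0.65, 0.76 and 0.70 within replicate numbers 2, 3 and 4 and with r from -0.59 to 0.12 between numbers, so the numbers paired the libraries. What they stand for is not in the labels. A second limma model therefore held the number as a replicate block. Alternatives used the recovered reads with DESeq2 1.42.0 and edgeR 4.0.16, other pseudocounts (0.1 and 10), filters and scalings, each library left out, and a length correction that subtracted, per library, the median deviation of genes in 20 bins of exon length (GENCODE M21). Fits on all 4 replicates with limma were added after the data were seen. The limma, edgeR and DESeq2 fits were tested on simulated data that held no replicate effect and no length effect. Such data cannot show how well the block or the length correction works on these libraries. Over all genes limma called 162, edgeR 135, DESeq2 1434 and limma with the block 4872. Promoters came from RefSeq (GRCm38.p6) and gene positions from GENCODE M21, which share the assembly of mm10.

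The 10 genes and the other lists were chosen with earlier results of these data known. Named genes were the 10 chaperones, up to 3 genes per other list with the largest fold change among those called (or called with the block where none was), and the 3 genes nearest in pattern to Hspa1a, Hspb1 and Hspd1.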

Additional observations from a re-analysis of the deposited data

Results flagged for a closer look

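In groups of 4 libraries at 5 h, 5 CPM values (reads scaled to the library total) lay far from the other 3, among 30 groups searched, of which chance gives about 1 in 20. Hspa1a was at 4.38 in treated replicate 2 and 1.32 to 1.71 in the other treated libraries. Hsph1 was at 93.0 in treated replicate 1 and 126.3 to 131.8 in the others. In untreated replicate 1, Dnajb1 was at 88.6 (others 55.5 to 57.1), Hspb1 at 367.4 (others 118.2 to 144.8) and Hspe1 at 233.5 (others 91.0 to 110.0). This is the library in which ribosomal protein genes took 7.0% of reads.

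The log2 ratio of Hsph1 was -0.23 at 1 h and 0.17 to 0.74 in the 4 pairs at 5 h, and that of Hspd1 was -0.22 at 1 h and 0.27 to 0.55 at 5 h. With 1 pair at 1 h, the difference between the times was not tested.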

How the results depend on the processing

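At 5 h, 0 of the 10 chaperone genes and 0 of the 55 related genes were called by limma. The replicate block gave 4 and 23, where 37.2% of all genes were called, and edgeR with the block 4 and 22 (37.0%). The length correction with the block gave 4 and 20 (33.85%), and DESeq2 1 and 7 (10.9%). The 3 blocked fits on all 4 replicates (edgeR, limma, and limma with the length correction) gave 0 and 0. Leaving out 1 library gave 0 to 2 of the chaperone genes and 0 to 8 of the related genes, and calls were made only without treated replicate 3, where 16.8% of all genes were called. Over 21 alternatives, 209 log2 fold changes of single chaperone genes were computed, of which 191 kept their direction and their side of the threshold, 15 became called in the same direction and 3 turned. Hspa1b turned to 0.081 without untreated replicate 3 and to 0.020 without treated replicate 4, in a range of -0.44 to 0.081 over the libraries left out, and Hspa8 to -0.010 with all 4 replicates, the length correction and the block. The cause was not tested. The median of the 10 at 5 h stayed above 0, from 0.10 to 0.28. The 4 medians of replicate 1 moved by less than their spread under 4 alternatives each, although that at 12 h was -0.05 with upper quartile rescaling. The replicate block changed no call beyond those given. With 23 to 129 reads per library, Hspa1a could not show small differences.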
